A study of Homo sapiens with 9 samples.

Results

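The 10 genes described here encode the YAP and TAZ coactivators, the TEAD transcription factors they bind, and proteins that regulate or respond to them: YAP1, WWTR1 (which encodes TAZ), TEAD1, TEAD2, TEAD3, TEAD4, AMOTL2, LATS2, AJUBA and ANKRD1. They were taken by symbol from the deposited table of gene counts, where all 10 were found among 28216 genes, and the rule sets no threshold on their values. RNAseq was performed on 9 libraries of 2 prostate cancer cell lines, with 3 libraries in each of 3 groups. PC3 cells, a line from a bone metastasis that grows without androgen, received no treatment and were kept in F12K medium with FBS. LNCaP cells (clone FCG), a line from a lymph node metastasis that responds to androgen, spent 24 h in RPMI medium without phenol red and with charcoal-stripped FBS. They were then given androgen at 10 nM or the vehicle, 0.01% ethanol, for 48 h. The sample labels name the androgen as DHT, whereas the main text of the study names R1881, so it is called androgen here. The labels give both lines as epithelial and their genotype as WT. PC3 and LNCaP cells differed in line, medium, serum and pretreatment together, so the parts of these factors in a difference between PC3 and LNCaP cells cannot be told apart. Nothing in the labels says that the libraries of a group came from separate cultures, and the p-values therefore measure the spread between these libraries, which may be technical.

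In the Hippo pathway, the kinases MST1 and MST2 (genes STK4 and STK3), with the scaffold SAV1, activate the kinases LATS1 and LATS2, which work with MOB1. LATS kinases phosphorylate YAP and TAZ, which are then held in the cytoplasm or degraded. Unphosphorylated YAP and TAZ enter the nucleus, bind TEAD proteins and switch on genes such as ANKRD1, CCN1 and CCN2. Several of those targets, among them AMOTL2 and LATS2, encode inhibitors of YAP and so form a negative feedback. In epithelial cells the pathway reads cell polarity, contacts and tension. RNA levels show neither the phosphorylation nor the place of these proteins in the cell.

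Each library had between 17397706 and 25640325 counts on genes, and 20.3% to 25.4% of its reads were not counted on a gene. Levels are given in CPM, the counts of a gene scaled to equal library totals with TMM factors. Where no read was counted, the level may still be as high as 0.117 to 0.172 CPM. This limit is 3 counts over the library total without TMM factors, and it covers counting error only. A gene was called where edgeR's quasi-likelihood test gave an adjusted p under 0.05 and the fold change was at least 2. SE stands for the standard error of a log2 fold change. The line labels were set beside marker genes chosen with earlier results of these data known, so this is not an independent check. The LNCaP markers KLK2, KLK3, TMPRSS2 and FOLH1 were called lower in PC3 cells in both comparisons with LNCaP cells, while HOXB13 was not. All 5 PC3 markers (VIM, CAV1, CD44, PLAU and EPHA2) were called higher in PC3 cells. Of these markers KLK2, KLK3, FOLH1, CD44 and PLAU in both comparisons, and CAV1 in that with vehicle, passed the filter on low counts through 1 line alone and had to differ. Markers of leukocytes, endothelium and fibroblasts summed to at most 4.31 CPM over 6 genes in any library. The androgen-responsive genes KLK2, KLK3 and TMPRSS2 were called higher with androgen than with vehicle.

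The members are spread over 8 chromosomes of GRCh38, and their positions follow GENCODE 44. YAP1 (ENSG00000137693.14) lies on the plus strand of chromosome 11 from 102110447 to 102233424, and TEAD1 (ENSG00000187079.20) on the same chromosome and strand from 12674421 to 12944737. Chromosome 3 holds WWTR1 (ENSG00000018408.15) from 149517235 to 149736714 and AMOTL2 (ENSG00000114019.15) from 134355347 to 134375479, both on the minus strand. The other TEAD genes are TEAD2 (ENSG00000074219.14) on the minus strand of chromosome 19 from 49340595 to 49362457, TEAD3 (ENSG00000007866.22) on the minus strand of chromosome 6 from 35473597 to 35497079, and TEAD4 (ENSG00000197905.10) on the plus strand of chromosome 12 from 2959330 to 3040676. LATS2 (ENSG00000150457.9, chromosome 13, 20973036 to 21061586), AJUBA (ENSG00000129474.17, chromosome 14, 22971177 to 22982551) and ANKRD1 (ENSG00000148677.7, chromosome 10, 90912096 to 90921087) are on the minus strand. Reads of 74 nt place these genes well: the share of their transcript sequence that recurs at this length at another site or in another gene was 1.68% for AMOTL2, 1.17% for YAP1, 0.436% for WWTR1 and 0% for the other members. On the same strand, AJUBA overlaps ENSG00000259132, WWTR1 overlaps WWTR1-IT1 and TEAD1 overlaps ENSG00000255067. AMOTL2 likewise overlaps RPL39P5, and LATS2 overlaps RNU4-9P. None of these overlapping genes was found under these names in the deposited counts, which list genes by symbol. WWTR1, TEAD1, LATS2 and AJUBA shared no stretch of 74 nt with transcripts of another gene. AMOTL2 shared 1.68%, and the counting cannot separate such reads. WWTR1 overlaps WWTR1-AS1, and TEAD2 overlaps CD37 and DKKL1, on the opposite strand. The counts used strand, and reads on the opposite strand made up 0.191% to 1.27% of the reads on each member.

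TEAD proteins bind the bases CATTCC, which read GGAATG on the other strand. The promoter windows below are those of members that hold these bases and were called higher in PC3 cells in both comparisons. Of the 4 searched members without these bases, WWTR1 and TEAD2 were called higher in both as well, so the match does not set these genes apart. The sequences are the 250 bases before a start site, from RefSeq on GRCh38.p14, read 5′ to 3′ on the strand of the gene. Of the members, 8 of 10 matched the RefSeq promoter set, with 12 windows in all, and TEAD1 and TEAD4 did not. Capitals mark CATTCC or GGAATG, and in ANKRD1 also TGATTCA, a match to TGANTCA. With any base at N, this pattern is looser than the site of AP-1 factors. The window of YAP1 is chr11:102110197-102110446, that of AMOTL2 is chr3:134374448-134374697, that of AJUBA is chr14:22976843-22977092 and that of ANKRD1 is chr10:90921088-90921337. For AMOTL2 and AJUBA this is the window of the downstream of 2 RefSeq starts, and the window of the upstream start held no match. CCN2, a member of the target list used below and a classical YAP target, is given with chr6:131951373-131951622. YAP1 is on the plus strand and the others are on the minus strand.
YAP1: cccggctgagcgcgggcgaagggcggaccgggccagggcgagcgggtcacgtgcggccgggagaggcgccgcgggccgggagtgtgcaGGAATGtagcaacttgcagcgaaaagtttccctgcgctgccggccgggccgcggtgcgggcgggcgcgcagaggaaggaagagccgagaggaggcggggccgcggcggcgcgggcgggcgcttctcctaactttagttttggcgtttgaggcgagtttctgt
AMOTL2: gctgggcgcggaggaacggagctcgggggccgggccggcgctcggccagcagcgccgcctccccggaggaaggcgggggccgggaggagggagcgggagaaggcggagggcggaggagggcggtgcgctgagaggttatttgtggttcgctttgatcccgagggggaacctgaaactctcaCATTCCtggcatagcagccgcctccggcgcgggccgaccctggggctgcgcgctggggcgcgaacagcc
AJUBA: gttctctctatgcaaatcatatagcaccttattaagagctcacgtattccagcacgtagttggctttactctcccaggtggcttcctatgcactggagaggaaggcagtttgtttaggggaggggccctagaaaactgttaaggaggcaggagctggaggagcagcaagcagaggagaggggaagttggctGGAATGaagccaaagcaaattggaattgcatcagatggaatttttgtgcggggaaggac
ANKRD1: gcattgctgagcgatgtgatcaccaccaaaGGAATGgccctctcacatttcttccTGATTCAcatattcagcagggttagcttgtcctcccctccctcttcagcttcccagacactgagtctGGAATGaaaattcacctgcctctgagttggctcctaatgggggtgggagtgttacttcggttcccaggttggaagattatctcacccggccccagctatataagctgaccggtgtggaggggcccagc
CCN2: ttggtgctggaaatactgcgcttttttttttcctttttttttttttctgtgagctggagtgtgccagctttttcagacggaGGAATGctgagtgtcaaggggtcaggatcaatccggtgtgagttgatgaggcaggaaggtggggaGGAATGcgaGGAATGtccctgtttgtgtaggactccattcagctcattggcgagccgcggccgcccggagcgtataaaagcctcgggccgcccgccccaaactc
CATTCC, searched on both strands, was present in 4 of the 12 member windows, those of 4 of the 8 members, and in 11.9% of 35116 RefSeq windows of the same length. In ANKRD1 it began at positions -220 and -128 from the start site, and CCN2 held it at -169, -104 and -95. YAP1 had a single match at -162, AMOTL2 at -69 and AJUBA at -59. TGANTCA, which reads the same on both strands, was found in 1 member window, that of ANKRD1 at -195, and in 6.57% of all windows. The palindromic androgen response element, which is AGAACA, 3 bases of any kind and TGTTCT, was in 0 member windows and in 0.00285% of all windows, and its arm AGAACA, searched on both strands, in 0 member windows and in 12.4% of all windows. These matches describe the letters in the windows and not binding.

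Most of the 10 members were expressed at a higher level in PC3 cells than in LNCaP cells. Against androgen-treated LNCaP cells, 8 of 10 members were called higher and 0 lower, while 24.0% of the 12541 genes tested were called higher and 22.1% lower (46.0% in either direction). Their median log2 fold change was 2.63, against 0.04 over all genes tested. Against vehicle-treated LNCaP cells, 8 of 10 were again called higher and 0 lower, with 22.2% of 12686 genes called higher and 21.0% lower (43.2% in either direction). There the median log2 fold change was 1.84, against 0.03 over all genes. YAP1, WWTR1, TEAD1, TEAD2, AMOTL2, AJUBA and ANKRD1 were called in both comparisons, TEAD4 in the first and LATS2 in the second, and TEAD3 in neither. All PC3 libraries lay above all LNCaP libraries for 9 of 10 members in each comparison, as they did for 43.6% and 42.8% of all genes tested. The comparisons share the PC3 libraries, so they are not independent. ANKRD1 in both comparisons, and WWTR1 against vehicle-treated cells, passed the filter on low counts through their PC3 libraries alone and had to differ to do so.

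**Figure D1:**
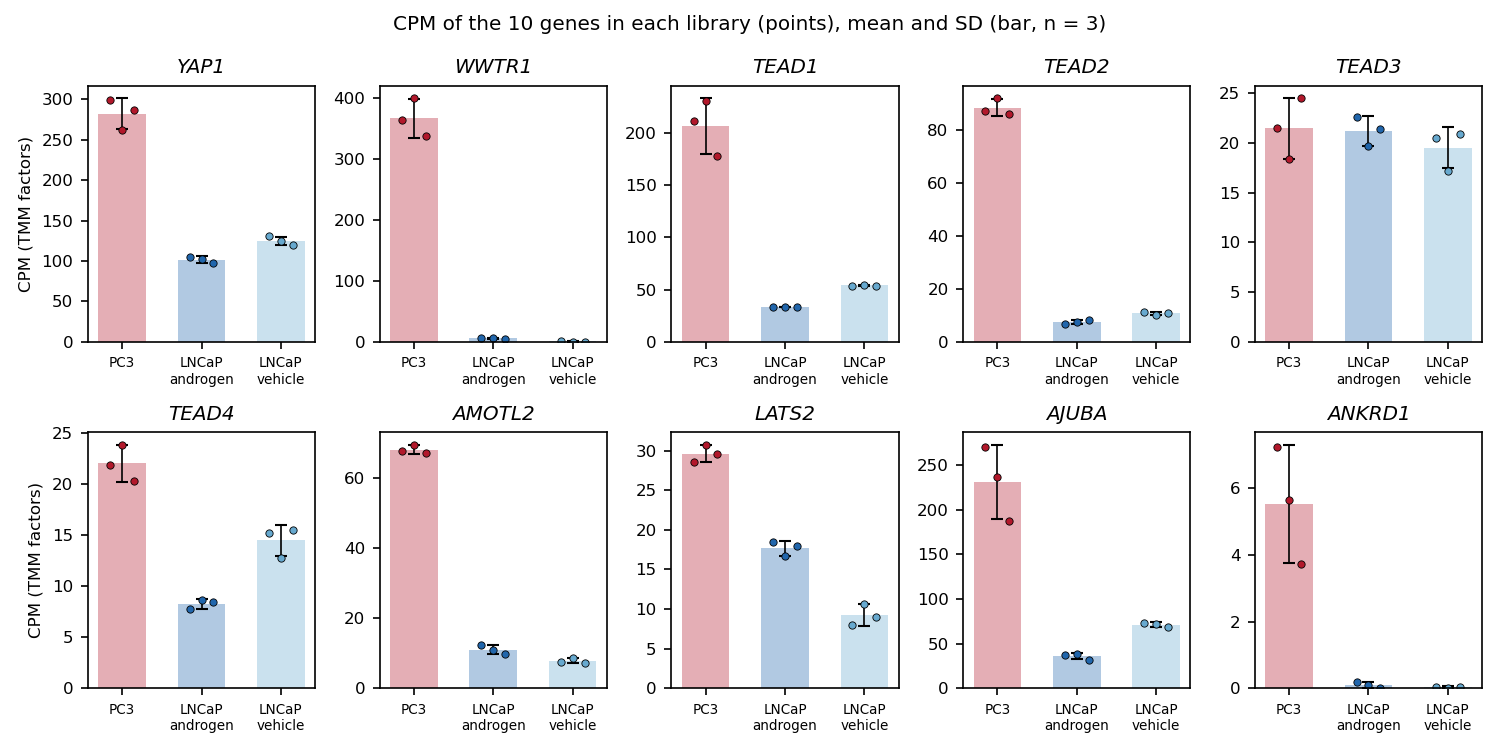
CPM of the 10 members in every library, on a linear axis that starts at 0 in each panel and differs between panels. Points are libraries, bars are group means and error bars are the SD of 3 libraries. In 9 of the 10 panels all PC3 libraries lie above all LNCaP libraries, the exception being TEAD3, while the androgen- and vehicle-treated libraries of ANKRD1 overlap close to 0.

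Of the coactivators, WWTR1 had a far larger fold change between the lines than YAP1. The 3 PC3 libraries held WWTR1 at 363, 399 and 337 CPM, against 6.63, 6.02 and 4.74 CPM with androgen and 1.73, 0.384 and 0.355 CPM with vehicle. The groups did not overlap, and the vehicle level rested on 33, 7 and 7 counts. The log2 fold change of PC3 over androgen-treated LNCaP cells was 5.98 (SE 0.15, edgeR adjusted p = 2.77e-08), or 63.1-fold. Over vehicle-treated cells it was 8.81 (SE 0.36, edgeR adjusted p = 2.43e-07), and it was 9.96 without vehicle replicate 1. These are bulk libraries, in which fewer cells with a transcript and less of it per cell cannot be told apart.

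YAP1 was present in every library of both lines. It measured 299, 262 and 287 CPM in PC3 cells, 105, 103 and 96.9 CPM with androgen, and 130, 125 and 120 CPM with vehicle. The 3 groups lay in separate ranges, highest in PC3 cells and lowest with androgen. PC3 cells exceeded androgen-treated LNCaP cells by a log2 fold change of 1.48 (SE 0.07, edgeR adjusted p = 5.41e-07) and vehicle-treated cells by 1.20 (SE 0.07, edgeR adjusted p = 1.42e-06). Per kb of merged exons, the scale on which genes can be compared, YAP1 reached 44.8 ± 3.01 CPM (SD, n = 3) and WWTR1 43.8 ± 3.76 (SD, n = 3) in PC3 cells. The ratio of YAP1 to WWTR1 per length was thus 1.03 ± 0.141 (SD, n = 3) in PC3 cells. It was 23.5 ± 3.17 (SD, n = 3) in androgen-treated LNCaP cells, and 99.8 to 448 in the vehicle-treated libraries, whose WWTR1 counts are low. The ratio did not overlap between any pair of groups, and each exact two-sided permutation test gave p = 0.1, the smallest that 3 against 3 libraries allow (adjusted p = 0.1 over 3 tests). The ratio depends on the length taken for each gene. Merged exons span 8353 nt for WWTR1 and 6311 nt for YAP1, and the longest transcripts 5037 and 5401 nt. With the longest transcripts the ratio in PC3 cells was lower.

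The TEAD genes encode the DNA-binding partners of YAP and TAZ and did not move together. TEAD2 showed the largest fold change of the 4, and TEAD1 the largest difference in CPM. The level of TEAD2 was 87.0, 92.0 and 86.1 CPM in PC3 cells, 6.76, 7.60 and 8.22 CPM with androgen and 11.3, 10.2 and 10.9 CPM with vehicle. All PC3 libraries were far above the LNCaP libraries for TEAD2, with a log2 fold change of 3.56 (SE 0.09, edgeR adjusted p = 2.82e-08) over androgen-treated and 3.06 (SE 0.08, edgeR adjusted p = 3.02e-08) over vehicle-treated cells. TEAD1 measured 211, 231 and 178 CPM in PC3 cells, 33.4, 33.4 and 33.0 CPM with androgen, and 53.9, 54.5 and 53.7 CPM with vehicle. Its LNCaP libraries were tight within each group, and its PC3 libraries had the widest spread among the TEAD genes in CPM. The log2 fold changes of TEAD1 were 2.64 (SE 0.11, edgeR adjusted p = 2.42e-07) and 1.96 (SE 0.11, edgeR adjusted p = 9.70e-07) against androgen- and vehicle-treated cells.

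TEAD4 was called in PC3 cells against androgen-treated cells only. It stood at 21.9, 23.9 and 20.3 CPM in PC3 cells, 7.75, 8.64 and 8.42 CPM with androgen, and 15.2, 12.8 and 15.5 CPM with vehicle. The vehicle-treated libraries lay between the other groups and overlapped neither. The log2 fold change was 1.42 (SE 0.11, edgeR adjusted p = 6.13e-06) over androgen-treated cells and 0.63 (SE 0.12, edgeR adjusted p = 0.00126) over vehicle-treated cells, under the fold change of 2. TEAD3 did not pass the test in any comparison. Its libraries held 21.5, 18.4 and 24.5 CPM in PC3 cells, 22.6, 19.6 and 21.4 CPM with androgen, and 20.4, 17.1 and 20.9 CPM with vehicle, so that all groups overlapped. The log2 fold change of TEAD3 was 0.02 (SE 0.12, edgeR adjusted p = 0.900) against androgen-treated and 0.16 (SE 0.13, edgeR adjusted p = 0.266) against vehicle-treated cells.

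The make-up of the TEAD family was compared as the share of each gene in their summed level per length. The summed TEAD level was 65.7 ± 3.24 CPM per kb (SD, n = 3) in PC3 cells, 16.2 ± 0.320 (SD, n = 3) with androgen and 21.4 ± 1.45 (SD, n = 3) with vehicle. TEAD2 made up 45.2 ± 0.932% (SD, n = 3) of this sum in PC3 cells, and 15.6 ± 1.39% and 16.9 ± 0.476% (SD, n = 3) in androgen- and vehicle-treated LNCaP cells. TEAD2 was thus the leading TEAD gene per length in PC3 cells and the lowest in both LNCaP groups. The share of TEAD3 was 10.8 ± 2.04% (SD, n = 3) in PC3 cells, 42.9 ± 2.67% with androgen and 29.8 ± 1.18% with vehicle (SD, n = 3). TEAD4 took 14.7 ± 0.467%, 22.4 ± 1.43% and 29.7 ± 1.08% (SD, n = 3) and TEAD1 29.3 ± 2.40%, 19.2 ± 0.497% and 23.7 ± 1.86% (SD, n = 3) in PC3, androgen-treated and vehicle-treated cells. In vehicle-treated cells the shares of TEAD3 and TEAD4 overlapped, whereas TEAD3 had the largest share in every androgen-treated library. The groups did not overlap in 11 of the 12 comparisons of a share, where each exact two-sided permutation test gave p = 0.1, the smallest possible here (adjusted p = 0.109 over 12 tests). The exception was TEAD2 between androgen and vehicle, with an exact p = 0.2. The shares depend on the length taken for each gene, and with the longest transcript in place of merged exons the share of TEAD3 with androgen was 38.3%.

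**Figure D2:**
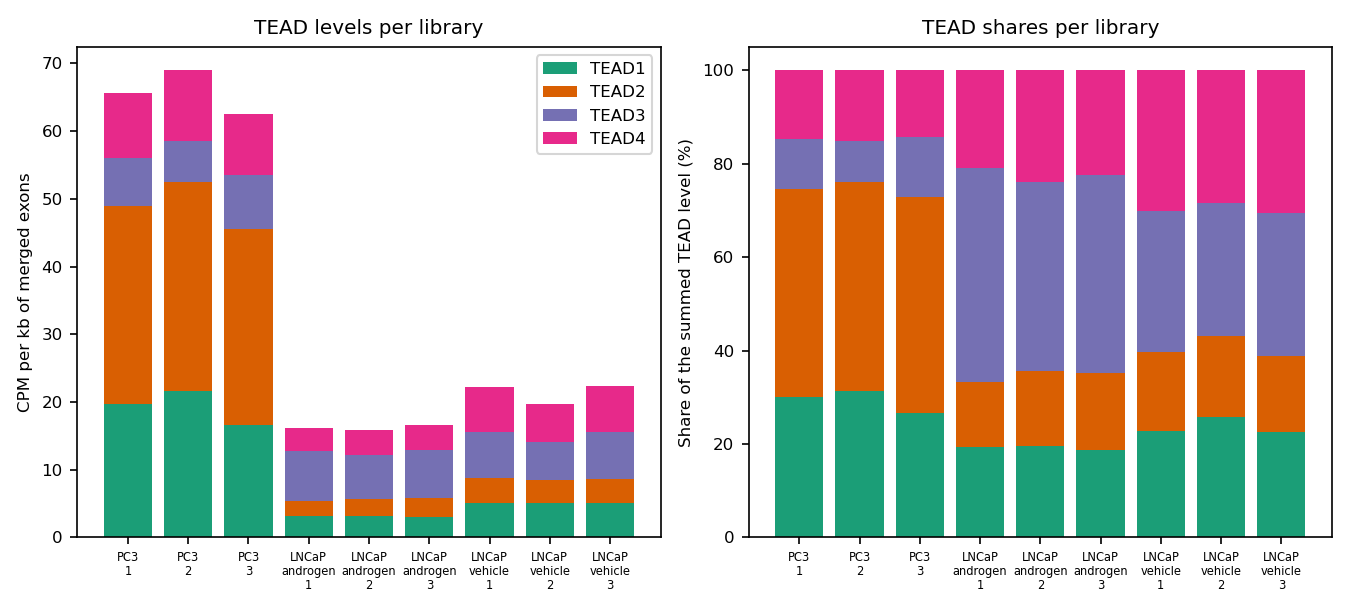
Levels of the 4 TEAD genes in each library, as CPM per kb of merged exons (left) and as the share of their sum in percent (right). Stacked colours are genes and each bar is a library. TEAD2 fills 44.5% to 46.2% of the PC3 bars, while TEAD3 fills 40.5% to 45.7% of the androgen-treated LNCaP bars.

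Among the regulators, AMOTL2 and AJUBA were called higher in PC3 cells in both comparisons, and LATS2 against vehicle-treated cells. AMOTL2 encodes a protein of the angiomotin family, which binds YAP at cell junctions. It had 67.9, 69.6 and 67.1 CPM in PC3 cells, 12.3, 10.9 and 9.83 CPM with androgen, and 7.5, 8.78 and 7.36 CPM with vehicle. Every PC3 library was above every LNCaP library, by a log2 fold change of 2.63 (SE 0.11, edgeR adjusted p = 2.01e-07) over androgen-treated and 3.14 (SE 0.09, edgeR adjusted p = 4.42e-08) over vehicle-treated cells.

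AJUBA encodes a LIM domain protein that binds LATS kinases at junctions and restrains them. Its level was 270, 236 and 187 CPM in PC3 cells, 37.7, 38.5 and 32.0 CPM with androgen, and 73.5, 72.1 and 68.5 CPM with vehicle. PC3 libraries were highest and androgen-treated libraries lowest, without overlap. The log2 fold changes were 2.68 (SE 0.16, edgeR adjusted p = 1.22e-06) and 1.72 (SE 0.13, edgeR adjusted p = 7.79e-06) over androgen- and vehicle-treated cells.

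LATS2, the kinase that phosphorylates YAP and TAZ, measured 28.6, 30.7 and 29.5 CPM in PC3 cells, 18.5, 16.6 and 17.9 CPM with androgen, and 8.02, 10.7 and 9.04 CPM with vehicle. Here the androgen-treated libraries lay between PC3 and vehicle-treated libraries. PC3 cells were called higher than vehicle-treated cells, with a log2 fold change of 1.70 (SE 0.11, edgeR adjusted p = 3.29e-06). The log2 fold change over androgen-treated cells was 0.75 (SE 0.09, edgeR adjusted p = 8.80e-05), under the fold change of 2.

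ANKRD1, a nuclear cofactor of muscle and a target of YAP and TAZ in many cells, was detected mainly in PC3 cells. The PC3 libraries held 184, 130 and 94 counts, or 7.24, 5.65 and 3.71 CPM. In LNCaP cells 4, 2 and 0 counts were found with androgen and 1, 0 and 1 with vehicle. The highest LNCaP library had 0.179 CPM, close to what a count of 0 allows. Of the summed counts, 408 in PC3 cells stood against 6 with androgen, a ratio of rates of 61.3 (exact Clopper-Pearson interval at 95% from 27.9 to 168). Against the 2 counts with vehicle the ratio was 151 (interval 41.6 to 1253). These intervals cover counting error only. edgeR's fitted log2 fold changes were 5.77 (SE 0.54, adjusted p = 1.94e-05) and 7.11 (SE 0.57, adjusted p = 8.80e-06), and the first was 6.66 without androgen replicate 1.

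**Figure D3:**
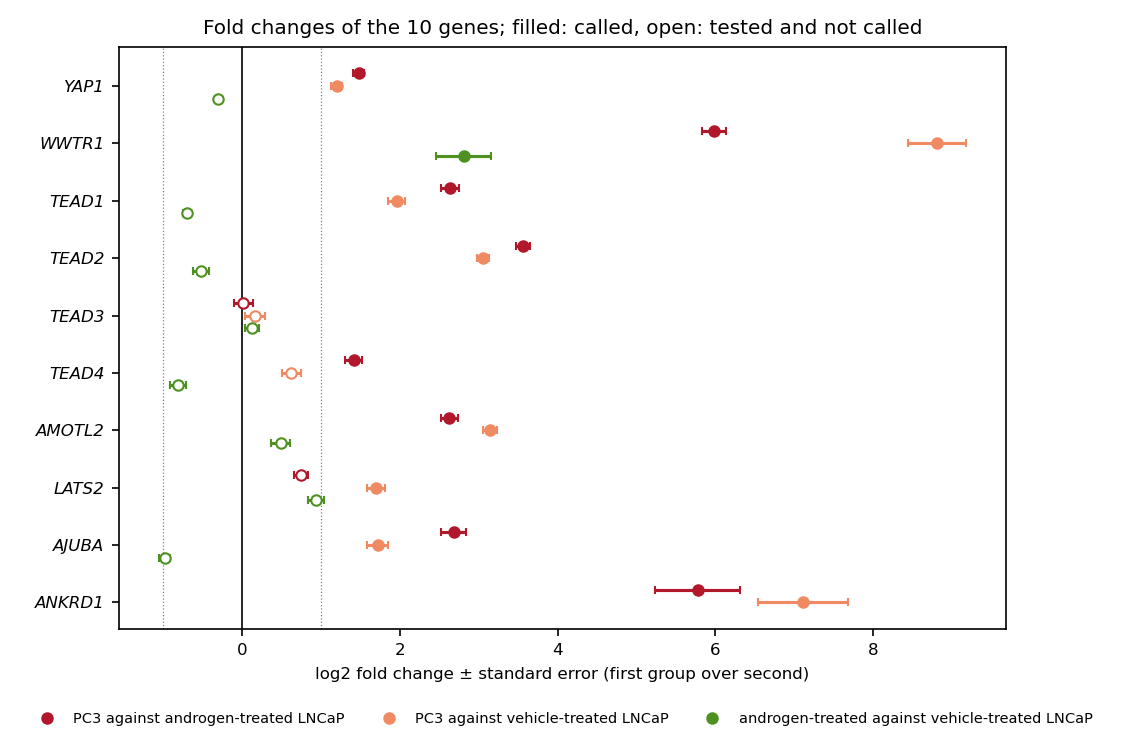
Log2 fold changes of the 10 members in the 3 comparisons, with the first-named group over the second. Points are edgeR's estimates, error bars are standard errors, dotted lines mark a fold change of 2, filled points were called and open points were tested and not called. The red and orange points lie to the right of 0, only just so for TEAD3 (0.02 and 0.16), whereas with androgen against vehicle (green) WWTR1 alone is filled, and ANKRD1 has no green point because it was not tested there.

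Per kb of merged exons, the order of the members differed between the lines. In PC3 cells YAP1, WWTR1 and AJUBA, at 39.3 ± 7.10 CPM per kb (SD, n = 3), had overlapping ranges at the top and were followed by TEAD2 at 29.7 ± 1.07 and TEAD1 at 19.3 ± 2.48 (SD, n = 3). AMOTL2 at 10.5 ± 0.193 and TEAD4 at 9.68 ± 0.785 CPM per kb (SD, n = 3) overlapped, and TEAD3, LATS2 and ANKRD1 came last in separate ranges. With androgen the order was led by YAP1 at 16.1 ± 0.654 CPM per kb (SD, n = 3), followed by TEAD3 at 6.96 ± 0.488 and AJUBA at 6.13 ± 0.611 (SD, n = 3), which overlapped. LATS2 and TEAD1 overlapped at 3.15 ± 0.169 and 3.11 ± 0.0210 CPM per kb (SD, n = 3). With vehicle YAP1 stood at 19.8 ± 0.804 CPM per kb (SD, n = 3), above AJUBA at 12.1 ± 0.437, TEAD3 at 6.39 ± 0.673 and TEAD4 at 6.37 ± 0.652 (SD, n = 3), of which TEAD3 and TEAD4 overlapped. WWTR1 and ANKRD1 held the last places in both LNCaP groups.

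Androgen was compared with vehicle in LNCaP cells to see which members responded to the treatment. WWTR1 was called higher with androgen, and no member was called lower. This was 1 of the 9 members tested, while 6.54% of 11697 genes were called higher and 7.49% lower (14.0% in either direction). The median log2 fold change of the 9 members was -0.30, against -0.01 over all genes. With the adjusted p alone, 8 of 9 members were below 0.05, as were 74.9% of all genes, so most members differed by less than the fold change of 2. ANKRD1 was not tested, since it did not pass the filter on low counts in LNCaP libraries.

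WWTR1 was 7.02-fold higher with androgen, a log2 fold change of 2.81 (SE 0.35, edgeR adjusted p = 8.82e-06), on 148, 122 and 94 counts against 33, 7 and 7. Vehicle replicate 1 had the most WWTR1 of its group, and leaving it out gave 3.96. WWTR1 passed the filter on low counts through the androgen-treated libraries alone. AMOTL2 and LATS2 had log2 fold changes of 0.49 (SE 0.12, edgeR adjusted p = 0.00185) and 0.94 (SE 0.10, edgeR adjusted p = 2.64e-06). All androgen-treated libraries were above all vehicle-treated libraries for both genes, and without vehicle replicate 2 LATS2 passed the fold change of 2 at 1.05.

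The remaining members, other than TEAD3, had negative log2 fold changes with androgen and groups that did not overlap. AJUBA had -0.98 (SE 0.07, edgeR adjusted p = 2.46e-08), just short of the fold change of 2, which it passed without androgen replicate 1 (-1.02), androgen replicate 2 (-1.03) or vehicle replicate 3 (-1.01). TEAD4 had -0.81 (SE 0.10, adjusted p = 7.79e-06), TEAD1 -0.70 (SE 0.05, adjusted p = 2.23e-08) and TEAD2 -0.52 (SE 0.10, adjusted p = 0.000437), all from edgeR. For YAP1 the value was -0.30 (SE 0.05, edgeR adjusted p = 7.66e-05). TEAD3 had 0.12 (SE 0.09, edgeR adjusted p = 0.218), with overlapping groups. In all, 8 of the 9 tested members had groups without overlap, as did 77.8% of all genes tested.

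The LNCaP libraries held a few reads from genes that mark PC3 cells, and in both LNCaP groups replicate 1 had the highest summed level. As a share of the mean PC3 level, the 5 PC3 markers had a median of 0.776% (range 0.590% to 1.18%), 0.246% (0.0486% to 0.763%) and 0.192% (0% to 0.738%) in androgen-treated replicates 1, 2 and 3. In vehicle-treated replicates the medians were 0.321% (0.206% to 1.08%), 0.104% (0% to 0.901%) and 0.0894% (0.0300% to 0.945%). Summed over the 5 markers, the levels were 11.8 to 29.7 CPM with androgen, 8.23 to 15.4 CPM with vehicle and 3134 to 3367 CPM in PC3 cells. WWTR1 was at 1.81%, 1.64% and 1.29% of its mean PC3 level with androgen, above each of the 5 markers in the same library. With vehicle it was at 0.472%, 0.105% and 0.0971%, within the range of the markers. VIM, 1 of the 2 markers tested in this comparison, was also called higher with androgen, with a log2 fold change of 1.86 (SE 0.36, edgeR adjusted p = 0.000447) that was 2.51 without vehicle replicate 1, while EPHA2 had -0.11 (SE 0.17, edgeR adjusted p = 0.571). Without replicate 1 of both LNCaP groups, a choice made after seeing the data, the log2 fold change of WWTR1 between androgen and vehicle was 3.84 (SE 0.30). The part of such reads in the low WWTR1 and ANKRD1 counts of LNCaP cells was not tested.

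**Figure D4:**
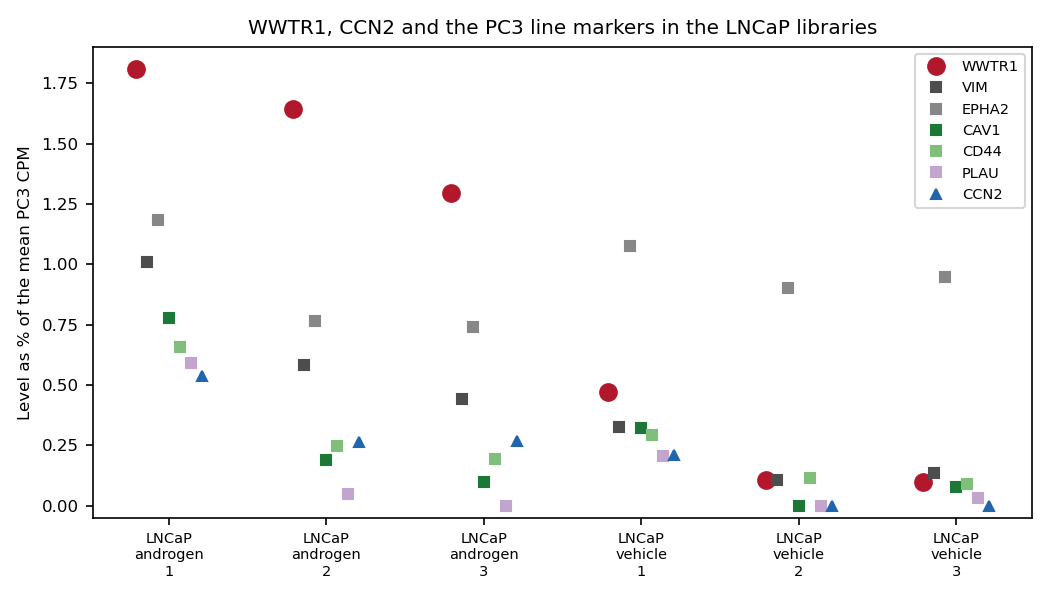
WWTR1 (large red circles), the YAP target CCN2 (triangles) and the 5 PC3 markers (squares) in each LNCaP library, as percent of the mean PC3 CPM on a linear axis. WWTR1 lies above every marker in the 3 androgen-treated libraries, at 1.29% to 1.81%, and among the markers in the 3 vehicle-treated libraries.

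Of 22 genes in a published signature of YAP and TAZ targets, 20 were tested against LNCaP cells. AMOTL2, LATS2 and ANKRD1 are part of that list, and PTPN14 is in it and in the kinase and regulator list used below. Against androgen-treated cells, 17 were called higher in PC3 cells, 1 lower and 2 were not called (24.0% and 22.1% of all genes were called higher and lower), and the median log2 fold change was 4.02. Against vehicle-treated cells, 18 were called higher, 1 lower and 1 was not called, with a median of 3.45. There 22.2% and 21.0% of all genes were called higher and lower. The median over all genes was 0.04 against androgen-treated and 0.03 against vehicle-treated cells. In each comparison 8 of the 20 genes, among them ANKRD1, CCN2, AXL and RBMS3, passed the filter through PC3 libraries alone, so these had to differ. The gene called lower, NUAK2, passed it through LNCaP libraries alone.

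CCN2 and CCN1 encode matricellular proteins and are common readouts of YAP activity. CCN2 held 1993, 2198 and 1306 counts in PC3 libraries, 9, 4 and 4 with androgen, and 3, 0 and 0 with vehicle. The ratio of summed rates was 291 (exact interval 182 to 501) against androgen-treated cells and 1359 (interval 465 to 6591) against vehicle-treated cells. All 3 vehicle counts lay in replicate 1, and without that library the fitted log2 fold change of edgeR went from 10.36 to 13.73, a value that then depends on the prior count. CCN1 was also counted in every LNCaP library, with 99.2, 127 and 78.9 CPM in PC3 cells, 12.7, 10.2 and 13.0 CPM with androgen, and 9.85, 11.2 and 10.6 CPM with vehicle. Its log2 fold changes were 3.09 (SE 0.20, edgeR adjusted p = 2.29e-06) and 3.29 (SE 0.19, edgeR adjusted p = 1.34e-06).

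Among the target genes with reads in LNCaP cells, the largest fitted rises were those of AXL, a receptor tyrosine kinase, and MYOF, which encodes the membrane repair protein myoferlin, against androgen-treated cells, and of AXL and CCN2 against vehicle-treated cells. AXL had 355, 326 and 348 CPM in PC3 cells, 2.24, 0.494 and 0.202 CPM with androgen, and 0.524, 0.0549 and 0.102 CPM with vehicle. The log2 fold changes of AXL were 8.39 (SE 0.44, edgeR adjusted p = 7.37e-07) and 10.54 (SE 0.28, edgeR adjusted p = 3.57e-08), and 9.94 and 12.01 without replicate 1 of the LNCaP group compared. AXL passed the filter on low counts through PC3 libraries alone in both comparisons, as did CCN2, so both had to differ. MYOF had 910, 866 and 936 CPM in PC3 cells against 4.92, 2.42 and 2.27 CPM with androgen, a log2 fold change of 8.12 (SE 0.28, edgeR adjusted p = 9.65e-08). RBMS3, an RNA-binding protein, held 289, 181 and 156 counts in PC3 cells and 0 in all 6 LNCaP libraries, so it was at least 188-fold higher than with androgen and 155-fold higher than with vehicle, taking 3 counts over a group as the limit, and its place in this order is not known. NUAK2, a kinase of the AMPK family, went the other way, at 1.77, 2.04 and 1.30 CPM in PC3 cells, 4.39, 3.5 and 3.28 CPM with androgen, and 8.44, 10.5 and 7.67 CPM with vehicle. PC3 cells were called lower for NUAK2, and the log2 fold changes were -1.13 (SE 0.22, edgeR adjusted p = 0.00166) and -2.35 (SE 0.20, edgeR adjusted p = 1.40e-05). Against androgen-treated cells NUAK2 fell short of the fold change of 2 without PC3 replicate 3 or without androgen replicate 1 (-0.97 in each case).

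Between androgen and vehicle 12 genes of the target list were tested, of which 1 was called higher, 3 lower and 8 were not called, beside 6.54% higher and 7.49% lower over all genes tested. Their median log2 fold change was 0.13. CRIM1, which encodes a membrane protein that binds BMPs, rose from 2.57, 1.98 and 3.40 CPM with vehicle to 7.21, 6.32 and 5.85 CPM with androgen (log2 fold change 1.28, SE 0.18, edgeR adjusted p = 2.21e-05). CCDC80, a secreted matrix protein, fell from 3.83, 3.24 and 3.35 CPM to 0.313, 0.444 and 0.202 CPM, and passed the filter through the vehicle-treated libraries alone, so it had to differ (log2 fold change -3.41, SE 0.25, edgeR adjusted p = 5.59e-08). NUAK2 and ARHGEF17, a guanine nucleotide exchange factor, also fell, with log2 fold changes of -1.24 (SE 0.15, edgeR adjusted p = 8.53e-06) and -1.19 (SE 0.12, edgeR adjusted p = 7.17e-07). CCN1 had a log2 fold change of 0.19 (SE 0.11, edgeR adjusted p = 0.133), and CCN2 was not tested.

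Of 26 kinases, scaffolds and upstream regulators of the Hippo pathway, 25 were tested against LNCaP cells, and they moved in both directions. Against androgen-treated cells 12 were called higher in PC3 cells, 5 lower and 8 were not called, with a median log2 fold change of 0.97, while 24.0% of all genes were called higher and 22.1% lower. Against vehicle-treated cells 11 were called higher, 5 lower and 9 were not called, with a median of 0.82 and with 22.2% and 21.0% of all genes called higher and lower. The share called lower was thus near that of all genes in both comparisons. FAT4, WTIP and, against androgen-treated cells, FRMD6 passed the filter on low counts through PC3 libraries alone, and CRB3 and AMOT through LNCaP libraries alone, so these genes had to differ. FRMD6, which encodes an upstream FERM protein, had the largest fold change upward in both, at 386, 350 and 347 CPM in PC3 cells, 2.69, 1.63 and 1.76 CPM with androgen, and 3.88, 2.14 and 2.54 CPM with vehicle. Its log2 fold changes were 7.46 (SE 0.17, edgeR adjusted p = 2.02e-08) and 7.0 (SE 0.19, edgeR adjusted p = 3.54e-08). FAT4, an atypical cadherin, had 423 summed counts in PC3 cells against 5 with androgen and 6 with vehicle, ratios of rates of 76.2 (exact interval 32.4 to 236) and 52.3 (interval 23.8 to 143). Next came AMOTL1, a relative of AMOTL2, with 3.46 (SE 0.14, edgeR adjusted p = 2.05e-07) against androgen-treated cells, and WWC2, of the KIBRA family, with 3.82 (SE 0.16, edgeR adjusted p = 2.77e-07) against vehicle-treated cells.

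CRB3, which encodes a polarity protein of the apical membrane, had the largest fold change downward in both comparisons. It stood at 0.669, 0.826 and 1.11 CPM in PC3 cells, 53.9, 48.8 and 49.7 CPM with androgen, and 29.4, 32.4 and 29.9 CPM with vehicle. The log2 fold changes of CRB3 were -5.86 (SE 0.16, edgeR adjusted p = 3.74e-08) and -5.11 (SE 0.16, edgeR adjusted p = 6.32e-08). WWC1, which encodes KIBRA, and TAOK3, a kinase that can act on MST kinases, fell by 3.21 and 2.89 on the log2 scale against androgen-treated cells (SE 0.08 and 0.07, edgeR adjusted p = 3.38e-08 and 2.86e-08). Against vehicle-treated cells AMOT, the founding angiomotin, and STK3, which encodes MST2, fell by 3.41 and 2.12 on the log2 scale (SE 0.13 and 0.10, edgeR adjusted p = 1.84e-07 and 3.77e-07). Within the angiomotin family, AMOTL1 and AMOTL2 were thus higher in PC3 cells and AMOT was lower, at 1.5, 1.65 and 1.90 CPM in PC3 cells against 10.9 to 13.7 CPM with androgen and 16.7 to 19.2 CPM with vehicle.

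With androgen against vehicle, 22 genes of the kinase and regulator list were tested, of which 3 were called higher, 1 lower and 18 were not called, with a median log2 fold change of -0.12. Over all genes tested the shares were 6.54% higher and 7.49% lower (14.0% in either direction), and counts this small are not read as a result about the list. WWC1, TAOK3 and WWC2 rose, with log2 fold changes of 1.58 (SE 0.05, edgeR adjusted p = 1.34e-11), 1.55 (SE 0.06, edgeR adjusted p = 1.34e-10) and 1.48 (SE 0.15, edgeR adjusted p = 9.76e-07). WWC1 reached 271, 296 and 265 CPM with androgen against 89.3, 93.1 and 96.1 CPM with vehicle. STK3 fell from 61.2, 63.1 and 55.7 CPM with vehicle to 29, 28.4 and 27.6 CPM with androgen, a log2 fold change of -1.08 (SE 0.06, edgeR adjusted p = 2.81e-09). Of 3 genes of the VGLL family, whose proteins bind TEAD proteins, VGLL4 alone was tested. VGLL4 encodes a corepressor that competes with YAP for TEAD proteins. It was not called, with log2 fold changes of -0.27, -0.21 and 0.04 in the 3 comparisons. VGLL1 and VGLL3 were below the filter in every comparison.

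**Figure D5:**
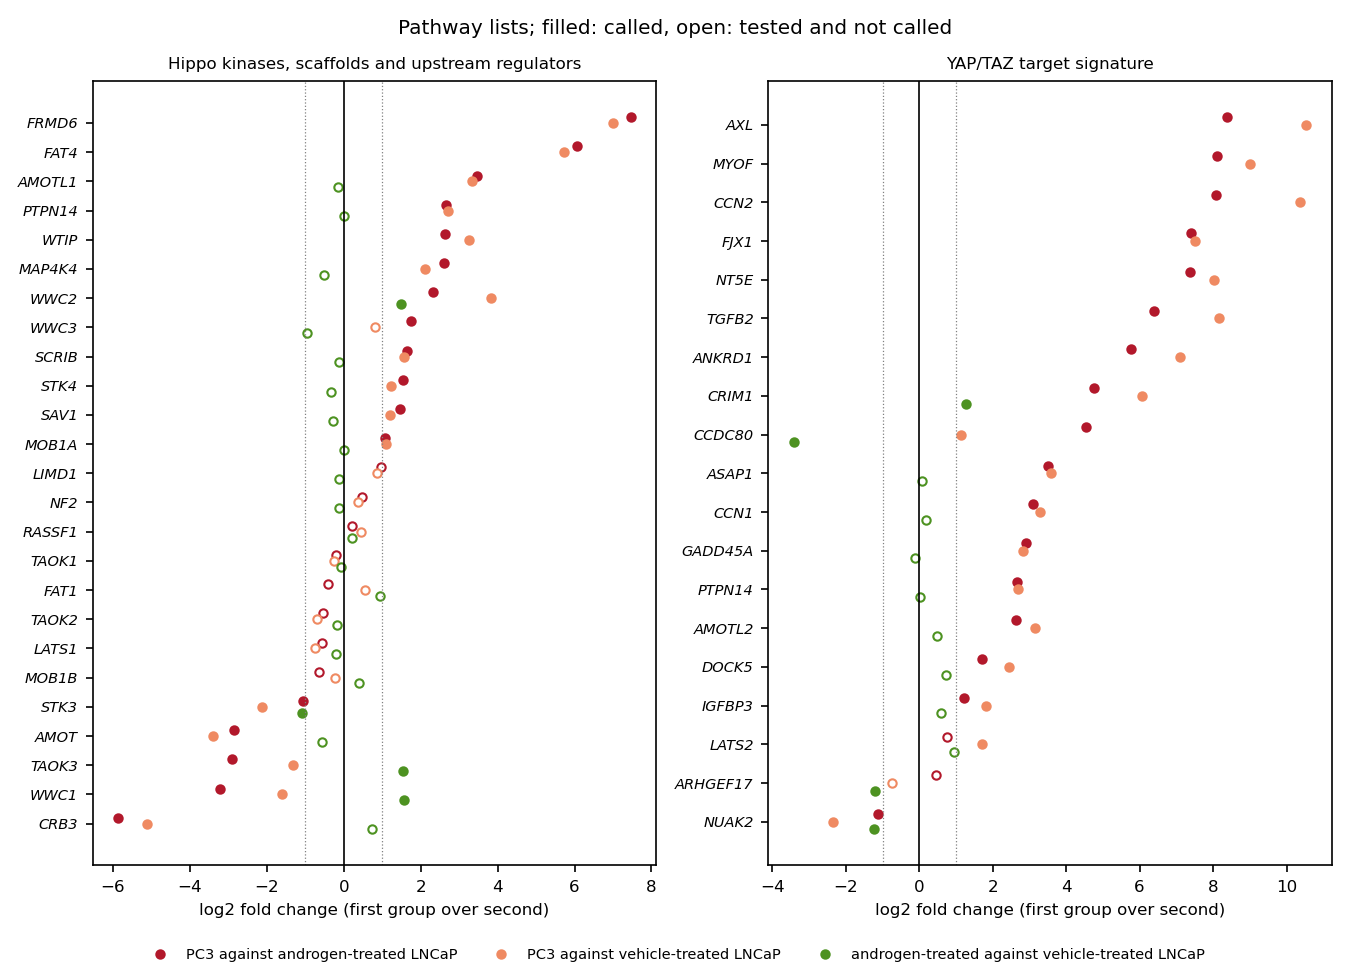
Log2 fold changes of the tested genes of the kinase and regulator list (left) and of the target list (right) in the 3 comparisons, with the first-named group over the second. Filled points were called, open points were tested and not called, dotted lines mark a fold change of 2, and RBMS3 is left out because it had 0 counts in all LNCaP libraries. FRMD6 and FAT4 lie far to the right and CRB3 far to the left, while most target genes lie to the right in both comparisons with PC3 cells.

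To see which genes varied most like the coactivators, log2 CPM over the 9 libraries was correlated across 12843 genes with that of YAP1 and of WWTR1. For YAP1 the nearest were SLC7A5, an amino acid transporter (Pearson r = 0.999), SAV1, the scaffold of the MST kinases (r = 0.998), LINC02315 (r = 0.998), SNX6 (r = 0.997) and SEMA4C (r = 0.997). SAV1 is in the kinase and regulator list and averaged 70.4 CPM in PC3 cells, 25.6 with androgen and 31.1 with vehicle. For WWTR1 they were IER3 (r = 0.997), FNBP1 (r = 0.996), SPRY4, an inhibitor of receptor tyrosine kinase signalling (r = 0.995), MISP (r = 0.994) and KRT19, an epithelial keratin (r = 0.993). SPRY4 averaged 438 CPM in PC3 cells, 5.39 with androgen and 0.366 with vehicle, and KRT19 averaged 435, 15.4 and 1.82 CPM. The 9 libraries fall into 3 groups, so r mainly describes the order and spacing of the group levels and is given without a test. The size of the differences does not enter r. FNBP1 averaged only 79.6 CPM in PC3 cells, 55.0 with androgen and 44.9 with vehicle, whereas SLC7A5 averaged 541, 7.80 and 19.5 CPM.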

How the data were processed

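RNAseq libraries were made from polyA-enriched RNA and sequenced as single-end reads of 74 nt. The values are raw counts that the authors deposited: reads per gene symbol, not normalized, in a joint table of 28216 genes and in the gene count output of STAR for each library. According to the submitters' processing notes, cutadapt 4.1, STAR 2.7.7a and UMI-tools 1.1.2 were used with GRCh38, and the study's supplement names other versions of cutadapt and STAR. Reads were trimmed and aligned, and PCR duplicates were removed by molecular identifiers. All 253944 values in the joint table equalled STAR's forward-strand counts, and 0 columns stayed unused. The gene annotation behind the counts is not given in the sources used here.

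Genes with more than 3 CPM in at least 3 libraries of a fit were kept. TMM factors and the quasi-likelihood F test of edgeR 4.0.16 (R 4.3.3) were computed for each comparison on its own 6 libraries, with Benjamini-Hochberg adjustment over all genes tested. The standard error is the absolute log2 fold change divided by the square root of F. The study's likelihood ratio test is an alternative, and its batch term was not used because the batches are not named. For printed CPM the TMM factors came from all 9 libraries together, and CPM per kb use merged exon lengths of GENCODE 44 on GRCh38. Between 17397706 and 25640325 counts on genes per library set the precision. The scripts were tested on simulated counts.

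The 10 members and the gene lists were chosen with earlier results of these data known. From each list, the called genes that rose most and fell most in each comparison are named, up to 3 a direction, with CCN1 and CCN2 always, and the 5 genes nearest in pattern to YAP1 and to WWTR1. Other genes named, such as VIM and the other markers, illustrate a value and were chosen after their values were seen.

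Replicate numbers are shared between groups. Deviations from the group means correlated between the LNCaP groups at 0.161, 0.226 and 0.202 for equal numbers over 10912 genes, and at -0.247 to 0.0869 for unequal ones. For PC3 with either LNCaP group, same-number correlations ranged from -0.192 to 0.074, but unequal numbers reached 0.217 (PC3 replicate 3 with androgen replicate 1). Values of this size thus also arose between unequal numbers. Whether equal numbers mark paired LNCaP libraries cannot be told from them, and the labels do not say so. The alternatives were DESeq2 size factors, DESeq2 1.42.0, the likelihood ratio test, the replicate block, unfiltered genes, a filter of at least 10 counts in each library, calls by adjusted p alone, a test that the change exceeds 2-fold, unstranded counts, 1 fit of all 9 libraries, the longest transcript as length, and leaving out each library with the tested genes kept. Leaving out replicate 1 of both LNCaP groups was added after seeing the data. A marker of LNCaP cells is not reported here.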

Additional observations from a re-analysis of the deposited data

How the results depend on the processing

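Among the log2 fold changes of members and named genes, 1673 values under an alternative kept their direction and their side of the threshold, 5 passed it, 4 no longer did and 5 changed sign. Those that changed sign were never called: TEAD3 in PC3 against androgen-treated LNCaP cells was -0.090 without PC3 replicate 3 and -0.040 without androgen replicate 2 (range -0.090 to 0.11 over libraries left out), and AMOTL1 between androgen and vehicle was 0.044 without vehicle replicate 1 (range -0.31 to 0.044). HOXB13 in PC3 against vehicle-treated cells was -0.16 without PC3 replicate 3 (range -0.16 to 0.28), and EPHA2 between androgen and vehicle was 0.011 without androgen replicate 3 (range -0.38 to 0.011). STK3 in PC3 against androgen-treated cells was -0.98 without PC3 replicate 2. The 8 members called in each comparison with PC3 cells stayed 8 under all alternatives that left out a library. Between androgen and vehicle, 1 to 2 members were called when a library was left out, 2 without replicate 1 of both LNCaP groups, 8 with the adjusted p alone and 0 with at least 10 counts in every library, a filter that WWTR1 does not pass. The replicate block changed no call of a member or named gene, and 8, 8 and 1 members were called with it. Of all genes, no filter on low counts called 9147 and 8713 in PC3 cells against androgen- and vehicle-treated cells and 2941 between androgen and vehicle, and the adjusted p alone called 10530, 10577 and 8763. In the target list, at least 10 counts in every library left 10 and 12 calls in the comparisons with PC3 cells. Between androgen and vehicle 7 target genes were called without a filter and 1 in the test against a fold change of 2. The adjusted p alone called 8 of the 12 target genes tested there, beside 74.9% of all 11697 genes. In the kinase and regulator list it called all 25 genes tested in PC3 against vehicle-treated cells, beside 10577 of all 12686 genes. Between androgen and vehicle it called 17 of the 22 tested. These counts are not read as results about the lists. With the longest transcript as length, the TEAD2 share was 46.3% in PC3 and 17.6% in vehicle-treated cells, the TEAD3 share 38.3% with androgen and 25.9% with vehicle, the TEAD4 share 16.5%, 26.1% and 33.6% in PC3, androgen- and vehicle-treated cells, and the ratio of YAP1 to WWTR1 0.725 in PC3 cells and 16.6 with androgen. Depth limits the low LNCaP counts of WWTR1 and ANKRD1.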
